A study of Rattus norvegicus with 26 samples.

Results

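The 10 genes described here were highly expressed in adult rat hepatocytes and close to silent in fetal hepatocytes sorted as LAP+. They were chosen by their measured levels, from a list of identifiers and a rule. The rule asks for over 100 nuclear CPM (CPM, counts scaled to a common library total, here with the counts on nuclear chromosomes as the total) in every adult library and for a LAP+ mean under 0.05% of the adult mean. Of 32552 features, 1035 passed the first limit and 14 passed both, and 10 of these 14 are the listed genes. The other 4 (ENSRNOG00000059330 and ENSRNOG00000021405 on chromosome 1, ENSRNOG00000010079 on chromosome 2 and ENSRNOG00000016348 on chromosome 19) are used here as a comparison. Just inside the LAP+ limit stood ENSRNOG00000004405 at 0.0407% of adult, and just outside it ENSRNOG00000011612 at 0.0623%. The lowest adult value among the listed genes was 148.3 nuclear CPM, in ENSRNOG00000029844, and of the features that met the LAP+ limit alone, the one nearest to the adult limit, ENSRNOG00000062125, had 64.2 nuclear CPM in its lowest adult library (adult mean 156.5 nuclear CPM).

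RNA was sequenced in 26 rat liver libraries that fall into 6 groups. After transplantation, laser capture gave tissue of fetal-derived colonies and surrounding liver of the adult host, from the same 5 animals (242, 243, 246, 248 and 249). Before transplantation there were immunopurified fetal hepatocytes in 3 sorts, LAP+/OC2+, LAP+/OC2- and LAP+, and hepatocytes of adult liver, with 4 libraries in each group. The labels spell out neither LAP nor OC2 and give no strain, sex or age. They do not say whether libraries with the same number before transplantation share an animal, a litter or a day, so p-values there measure the spread between these libraries, which may be technical.

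Liver cells change their work around birth. The fetal liver makes blood and plasma proteins, while the adult hepatocyte takes on the metabolism of bile acids, hormones and foreign compounds. Many enzymes and secreted proteins of the adult rat liver appear only after birth or weaning, and some of them differ between sexes. The files give the features identifiers without names, and the reference table used here (47357 genes) pairs 0 of them with a symbol. No function is therefore given for any member, and no marker list could be read.

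Total counts ran from 7871347 to 16874438 per library. The LAP+/OC2+ libraries stood apart: mitochondrial features took 38.9 to 78.6% of their counts, against 4.11 to 6.42% in the other fetal sorts together and 5.31 to 10.3% in adult cells. They held 1917734 to 5045098 nuclear counts, so a count of 0 there allows 0.595 to 1.56 nuclear CPM (3 counts), against 0.187 to 0.208 nuclear CPM in the other fetal libraries. Such limits, and the intervals below, cover counting error only. Adult library 2 also stood apart for the members, as described below.

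The members lie on 7 chromosomes, with coordinates taken from the deposited tables, whose build the labels do not name. On chromosome 1, ENSRNOG00000024016 spans 147713892 to 147888007 on the plus strand, with 16 exon blocks that sum to 4705 nt. It overlaps ENSRNOG00000061221. ENSRNOG00000012404 (chromosome 1, 162381253 to 162385575, minus strand) has 2 blocks of 1232 nt in all. ENSRNOG00000047493 (chromosome 4, 175969549 to 176026163, minus strand) has 16 blocks and 3752 nt and overlaps ENSRNOG00000053251 and ENSRNOG00000061722. ENSRNOG00000009921 (chromosome 6, 127808785 to 127816055, minus strand) has 5 blocks and 1692 nt. ENSRNOG00000007927 (chromosome 7, 3383879 to 3386522, minus strand) has 2 blocks and 1264 nt, and overlaps ENSRNOG00000007905. Where features overlap, reads may be split or shared between them.

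Chromosome 8 holds 3 members. ENSRNOG00000050232 (37702231 to 37705044, minus strand) has 2 exon blocks and 1054 nt. ENSRNOG00000045799 (41657566 to 41661238, plus strand, 4 blocks, 629 nt) and ENSRNOG00000047843 (41701850 to 41702599, minus strand, 2 blocks, 87 nt) lie 40611 nt apart on opposite strands. ENSRNOG00000004405 (chromosome 13, 47572219 to 47591699, plus strand) has 9 blocks and 3511 nt, and ENSRNOG00000029844 (chromosome 17, 69388335 to 69404341, minus strand) has 10 blocks and 1376 nt. The set thus shares no locus and no gene structure, although 6 of the 10 have under 1500 nt of exon.

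In adult cells the members' means ranged from 218.6 to 5055 nuclear CPM. This range and the LAP+ values below chose the genes, so they are given as a description without a test. ENSRNOG00000045799 reached 6065, 1857, 6744 and 5552 nuclear CPM in adult libraries 1 to 4, place 21 by mean level among nuclear features. ENSRNOG00000004405 stood at 5266, 4251, 5068 and 5379.8 nuclear CPM, the most even of the set (coefficient of variation 10.2%). Levels of different genes can be compared only per length. Per kb of exon the order in adult cells was led by ENSRNOG00000047843 (9309 ± 4666 nuclear CPM per kb, SD, n = 4) and ENSRNOG00000045799 (8036 ± 3477), which do not differ beyond their spread. The place of ENSRNOG00000047843 is uncertain, since its level is divided by only 87 nt of exon. Undivided, its adult mean was 809.9 nuclear CPM, against 5055 for ENSRNOG00000045799. ENSRNOG00000050232 (1571 ± 711) and ENSRNOG00000004405 (1422 ± 145) followed, again within their spread, and ENSRNOG00000047493 came last (86.3 ± 21.3).

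Adult library 2 had another member profile than the other 3 adult libraries. The 3 genes on chromosome 8 were low there: ENSRNOG00000050232 stood at 600.4 nuclear CPM in library 2, against 1871, 2367 and 1786 nuclear CPM in libraries 1, 3 and 4. ENSRNOG00000047843 had 233 nuclear CPM in library 2 and 829.8, 1143 and 1034 nuclear CPM in the others. Library 2 was also lowest for ENSRNOG00000009921, ENSRNOG00000007927, ENSRNOG00000047493 and ENSRNOG00000004405, at 311.9, 293.6, 249.4 and 4251 nuclear CPM. Their next lowest adult values were 516.0, 396.7, 292.9 and 5068 nuclear CPM. The 2 members on chromosome 1 were high in library 2 instead. ENSRNOG00000024016 stood at 1467 nuclear CPM in library 2 and at 829.15, 772.5 and 657.8 nuclear CPM in libraries 1, 3 and 4. ENSRNOG00000012404 stood at 1499.8 nuclear CPM, against 543.6, 796.5 and 858.7 nuclear CPM. The counts of ENSRNOG00000024016 over those of ENSRNOG00000045799 put the contrast in 1 figure: 0.790 in adult library 2, and 0.137, 0.115 and 0.118 in libraries 1, 3 and 4. After transplantation it was 0.783 to 1.04 in colonies and 0.747 to 1.04 in hosts, from another library kit. What sets library 2 apart is not given in the labels.

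**Figure D1:**
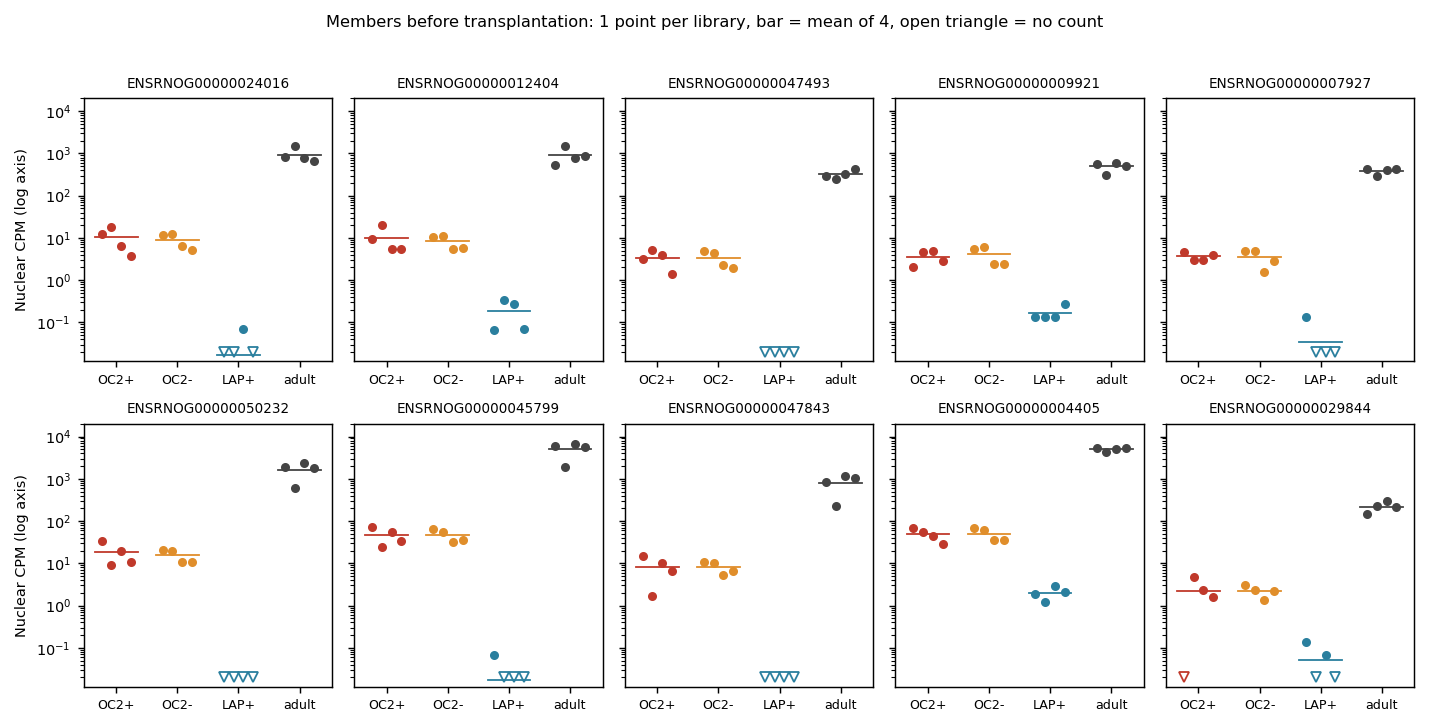
Levels of the 10 members before transplantation, in nuclear CPM on a log axis, with 1 point for each of the 4 libraries of a sort or of adult cells, a bar at the mean and an open triangle for no count (OC2+ and OC2- stand for LAP+/OC2+ and LAP+/OC2-). Adult points lie between 148.3 and 6744 nuclear CPM, LAP+ points at or below 2.94. Gene by gene, both OC2 sorts lie between LAP+ and adult points, which the rule set far apart, with the exception of 1 library without a count.

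LAP+ libraries held almost no counts of these genes. All 10 together had 147 counts in the 4 libraries, and 119 of them belonged to ENSRNOG00000004405, with 28 for the other 9. ENSRNOG00000004405 stood at 1.89, 1.21, 2.94 and 2.08 nuclear CPM in LAP+ libraries 1 to 4. ENSRNOG00000047493, ENSRNOG00000050232 and ENSRNOG00000047843 had no count in any LAP+ library. Over the group, 3 counts would be 0.0158, 0.0031 and 0.0063% of their adult means, which puts the adult level at least 6343-fold, 32433-fold and 15861-fold higher. ENSRNOG00000024016 and ENSRNOG00000045799 had 1 count each, and ENSRNOG00000007927 had 2. In bulk libraries, fewer cells that carry a transcript and less of it per cell cannot be told apart.

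Both OC2 sorts carried all 10 genes at about 1% of the adult level. These sorts did not enter the rule. ENSRNOG00000045799 stood at 73.0, 24.9, 54.0 and 34.3 nuclear CPM in LAP+/OC2+ libraries 1 to 4. In LAP+/OC2- libraries 1, 3, 4 and 5 it stood at 64.7, 55.6, 32.3 and 36.2 nuclear CPM. ENSRNOG00000004405 stood at 67.8, 56.6, 43.8 and 28.1 nuclear CPM in the LAP+/OC2+ libraries, and at 67.5, 60.7, 36.0 and 35.7 nuclear CPM in the LAP+/OC2- libraries. The sorts overlapped for each of the 10 genes, and overlap was not counted over other features. Their libraries lay above the LAP+ libraries with 1 exception. This was LAP+/OC2+ library 1, which had no count of ENSRNOG00000029844 (a count of 0 there allows up to 0.715% of adult). The rule chose the genes for low LAP+ values, so this order over the LAP+ libraries is a description and no test.

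As a share of the adult mean the members were alike within each sort. Gene by gene, the mean over 4 libraries ran from 0.730% (ENSRNOG00000009921) to 1.11% (ENSRNOG00000024016) in LAP+/OC2+ cells and from 0.838% (ENSRNOG00000009921) to 1.05% (ENSRNOG00000047493) in LAP+/OC2- cells, although adult levels span 218.6 to 5055 nuclear CPM. The SD over libraries was 0.213 to 0.899 percentage points in LAP+/OC2+ cells and 0.306 to 0.465 in LAP+/OC2- cells. The median over members was 1.28, 1.05, 1.02 and 0.619% in LAP+/OC2+ libraries 1 to 4, and 1.28, 1.22, 0.652 and 0.690% in LAP+/OC2- libraries 1, 3, 4 and 5. The libraries of 1 sort thus differed among themselves more than the sorts did. The mean of these medians was 0.991 ± 0.274% for LAP+/OC2+ (SD, n = 4) against 0.962 ± 0.337% for LAP+/OC2- cells (SD, n = 4). This closeness belongs to the nuclear scale: with TMM-scaled library sizes (edgeR's correction for composition) the values were 0.545 ± 0.122% and 0.732 ± 0.203%, and as CPM of all counts, mitochondrial ones included, 0.368 ± 0.086% and 0.991 ± 0.343% (SD, n = 4 each). Without adult library 2 in the adult mean, the values on the nuclear scale were 0.909% and 0.904%.

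The 4 genes that met the rule and are not listed had means of 0.990 to 1.36% of adult in LAP+/OC2+ cells and 0.907 to 1.06% in LAP+/OC2- cells. In LAP+/OC2+ cells ENSRNOG00000059330 (1.36%, SD 1.75 percentage points, n = 4) and ENSRNOG00000016348 (1.18%) stood above the highest member mean of 1.11%. The difference from the members was not tested.

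Among the 1035 features over 100 nuclear CPM in every adult library, the members stood at the low end in both OC2 sorts. In LAP+ cells their place at the low end was set by the rule. In LAP+/OC2- cells the median feature reached 66.3% of its adult level, and 6 other features lay below the highest member. No feature had a mean under 0.5% of adult in that sort, and 38 lay under 2%. In LAP+/OC2+ cells the median feature reached 25.2%, 13 other features lay below the highest member, and again no mean was under 0.5%. In LAP+ cells 29 of the same 1035 features had a mean under 0.5%, with a median feature at 70.2%. The low end of the distribution thus lay near 1% of adult in both OC2 sorts and reached 0 in the LAP+ sort, while the middle of the LAP+/OC2- distribution was close to that of LAP+ cells.

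**Figure D2:**
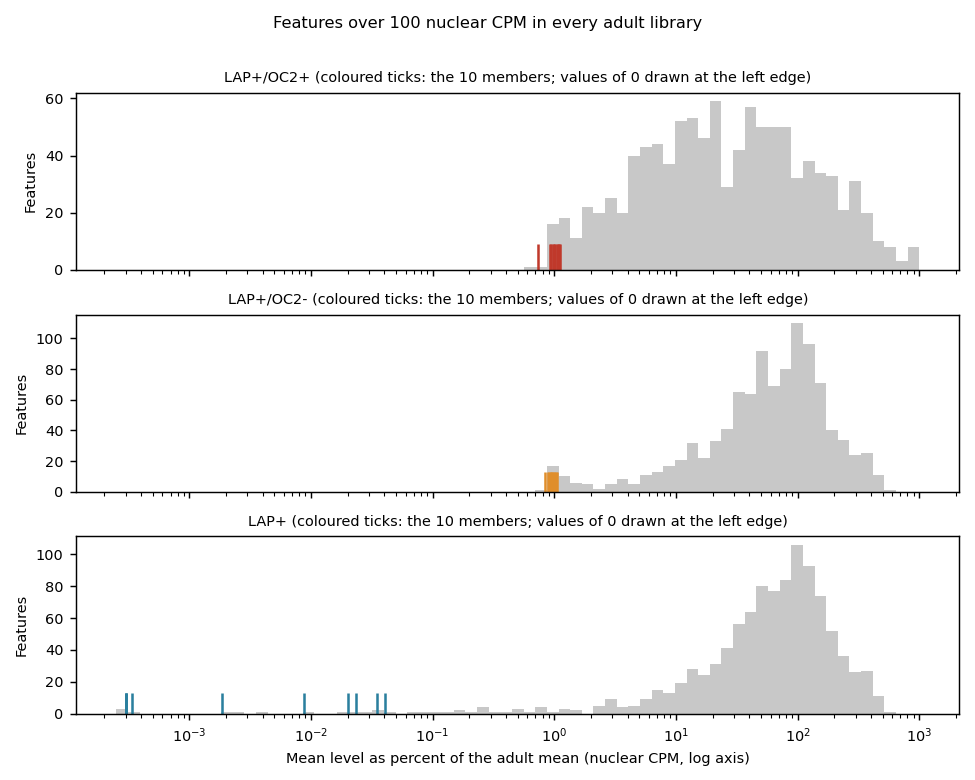
Mean level as a percentage of the adult mean, on a log axis, for the 1035 features over 100 nuclear CPM in every adult library, as 1 histogram for each fetal sort, with coloured ticks for the 10 members and values of 0 drawn at the left edge. Members cluster between 0.730 and 1.11% in LAP+/OC2+ cells and between 0.838 and 1.05% in LAP+/OC2- cells, at the left end of each distribution, and spread from 0 to 0.0407% in LAP+ cells, where the rule chose them.

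The proportions of the members to each other inside a library need no scaling between libraries. In LAP+/OC2+ cells library 2 stood apart. LAP+/OC2+ library 2 had 43 counts of ENSRNOG00000024016 and 58 of ENSRNOG00000045799, a ratio of 0.741, close to the 0.790 of adult library 2. LAP+/OC2+ libraries 1, 3 and 4 had ratios of 0.171, 0.122 and 0.110, and adult libraries 1, 3 and 4 had 0.137, 0.115 and 0.118. LAP+/OC2- libraries 1, 3, 4 and 5 had ratios of 0.185, 0.219, 0.195 and 0.143. The OC2 sorts were not used to choose the genes, and adult library 2 and LAP+/OC2+ library 2 were the 2 libraries before transplantation with a ratio above 0.22, leaving out LAP+ libraries, whose counts are too few.

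The counts of all 10 members were then set against the proportions of each adult library. Relative to the mean adult proportions, the chi-square per degree of freedom of the members' counts in LAP+/OC2+ library 2 (345 counts) was 12.96, and relative to adult library 2 it was 0.803, a value near that of counting error alone. Against adult libraries 1, 3 and 4 it was 26.1, 23.5 and 19.4. LAP+/OC2+ library 3 gave 0.391 against adult library 3 and 0.96 against adult library 4, and library 4 gave 1.20 against adult library 4 and 1.35 against adult library 3, so these libraries do not single out 1 adult library. Library 1 was nearest to adult library 3 (2.30), with 2.56 for adult library 1. These figures are descriptions of single libraries, and adult library 2 gave the widest gap to the others (19.4 or more, against 0.803). Over all genes above 10 CPM, deviations from the group means correlated at 0.07 to 0.37 between LAP+/OC2+ and adult libraries of the same number (4 pairs), with 0.37 for library 2. LAP+/OC2+ library 3 correlated more with adult libraries 4 (0.18) and 1 (0.16) than with adult library 3 (0.14). In library 2, ENSRNOG00000012404 stood at 2.13% of the adult mean (exact Poisson 95% interval 1.56 to 2.85%) and ENSRNOG00000047843 at 0.212% (0.0577 to 0.542%), the same order as in adult library 2, where they stood at 162 and 28.8% of it.

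In LAP+/OC2- libraries 1, 3 and 4 the members were nearer to the mean of the adult libraries than to any single one. Against the mean adult proportions, the chi-square per degree of freedom was 1.01, 1.07, 1.57 and 2.19 in libraries 1, 3, 4 and 5, which held 1524 to 2986 member counts each. Against the nearest single adult library, number 4 in each case, it was 4.51, 7.80, 3.82 and 2.33. Library 5 thus hardly separated the adult mean (2.19) from adult library 4 (2.33). In library 3 all members lay between 1.10 and 1.35% of the adult mean, and in library 1 between 1.10 and 1.55%. Whether the counts in the OC2 sorts come from fetal cells or from RNA of adult cells was not tested; the labels and files say nothing of shared preparation, lanes or indices.

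**Figure D3:**
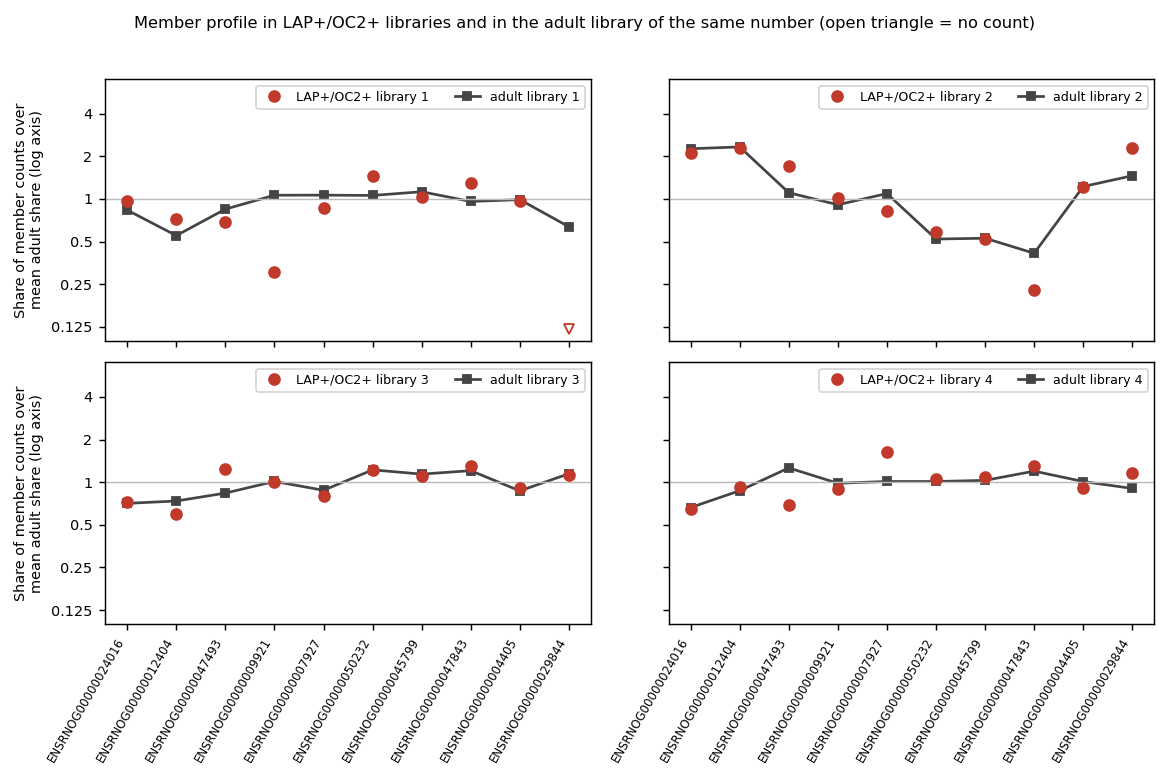
Share of each member in all counts of the 10 members, divided by its share in the mean of the adult libraries (log axis, 1 means equal), in the 4 LAP+/OC2+ libraries (circles) and in the adult library of the same number (squares joined by a line), with an open triangle for no count. In library 2 the circles follow the squares from over 2 for the chromosome 1 genes to under 0.6 for the chromosome 8 genes, and in libraries 3 and 4 the chromosome 8 circles lie above 1, as their squares do.

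LAP+/OC2+ and LAP+/OC2- cells can be compared by test, since the rule used neither. The quasi-likelihood test of edgeR called 67.5% of 13818 genes different between these sorts (Benjamini-Hochberg adjusted p under 0.05), while 0 of the 10 members were called. None had an unadjusted p under 0.05, and DESeq2 also called 0. Among the 8527 genes in the members' range of mean level (2.22 to 49.5 nuclear CPM over the 8 libraries), 68.2% were called. The fitted log2 differences were all negative with TMM scaling, from -0.63 for ENSRNOG00000009921 (SE 0.34, edgeR adjusted p = 0.12) to -0.24 for ENSRNOG00000012404 (SE 0.41, edgeR adjusted p = 0.62). Their median was -0.49, against -0.18 for all genes tested. Scaling by nuclear totals without TMM moved the median of all genes to 0.29 and that of the members to -0.02, and 4 members then had a positive difference. This scaling shifts all genes alike, so no direction is read from the members' signs. Relative to all genes the members' median was -0.31, and it was -0.14 without LAP+/OC2+ library 4, -0.53 without LAP+/OC2+ library 2 and -0.65 without a low-count filter.

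The precision for the members was lower than for most genes of like level, with a median SE of 0.39 on the log2 scale against 0.26 over those 8527 genes, and LAP+/OC2+ libraries had 0 to 180 counts per member. A difference within these errors was not detectable with these libraries, and the missing calls do not show that the sorts were alike. What widened the members' errors was not tested. Without LAP+/OC2- library 5, ENSRNOG00000009921 alone of the members was called, lower in LAP+/OC2+ cells (edgeR adjusted p = 0.047). In that fit 8973 of 14120 genes were called, 4892 of them lower.

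After transplantation all 10 members were measured in both tissues, at means of 40.4 CPM or more. Library kit and material differ from those of the sorted cells, so levels are not compared with those above. ENSRNOG00000004405 stood at 6508 ± 652 TMM-scaled CPM for colonies against 7826 ± 893 for hosts (SD, n = 5 each), place 12 among nuclear features by host mean. ENSRNOG00000050232 averaged 40.4 ± 15.5 CPM over the colonies, against 57.7 ± 20.5 CPM over the hosts (SD, n = 5 each). Per kb of exon, ENSRNOG00000047843 led in both tissues, a place that again depends on its 87 nt of exon. It had 2446 ± 302 nuclear CPM per kb for colonies against 2420.4 ± 695 for hosts (SD, n = 5 each). ENSRNOG00000047493 was last, as it was in the adult cells.

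With TMM scaling all 10 members had a lower fitted level in colonies than in the host tissue of the same animals (8 of 10 with nuclear totals in place of TMM), and 4 of them passed the test. In this comparison 1.17% of genes were called in either direction, by edgeR with the animal as a block (adjusted p under 0.05). Called lower were 0.61% of 22303 genes, and 3.31% of the 2750 genes in the members' range of mean level. Those 2750 genes leaned lower too, with a median log2 of -0.21 and 91 of their 92 calls lower. Negative differences were not counted over all genes, and scaling shifts all genes alike, so no direction is read from the members' signs alone. ENSRNOG00000009921 had 205, 199, 203.2, 163.7 and 123.7 CPM in colonies of animals 242, 243, 246, 248 and 249, against 302.9, 268.9, 182.9, 337.5 and 258.2 CPM in hosts. It was lower in 4 of 5 animals, by a fitted log2 of -0.59 (SE 0.14, edgeR adjusted p = 0.039). ENSRNOG00000007927 had 146.7, 208.7, 189.9, 80.3 and 122.6 CPM in colonies, against 208, 283.9, 170.7, 177.9 and 217.8 CPM in hosts of the same animals. It too was lower in 4 of 5 animals (log2 -0.55, SE 0.14, edgeR adjusted p = 0.046).

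With TMM scaling the other 2 called genes were lower in all 5 animals, and with nuclear totals in 4 of 5 (ENSRNOG00000047493 was then not lower in animal 249, nor ENSRNOG00000050232 in animal 243). ENSRNOG00000050232 had 32.9, 63.7, 37.4, 45.5 and 22.4 CPM in colonies, against 62.3, 74.4, 39.5, 79.0 and 33.1 CPM in hosts (log2 -0.52, SE 0.14, edgeR adjusted p = 0.048). ENSRNOG00000047493 had 72.6, 135.8, 91.3, 77.0 and 51.3 CPM in colonies, against 144, 196.1, 92.6, 120.7 and 62.5 CPM in hosts (log2 -0.50, SE 0.13, edgeR adjusted p = 0.047). Colony and host ranges overlapped for both genes, and the call rests on the comparison within animals.

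The other 6 members did not pass. ENSRNOG00000045799 had 262.3, 422.9, 397.6, 404.3 and 237.6 CPM in colonies, against 464.8, 567.5, 325.2, 761.3 and 345.8 CPM in hosts (log2 -0.49, SE 0.14, edgeR adjusted p = 0.069). Its neighbour ENSRNOG00000047843 had a fitted log2 of -0.20 (SE 0.13, edgeR adjusted p = 0.40) and was higher in the colony of animal 246. ENSRNOG00000024016 had -0.39 (SE 0.13, edgeR adjusted p = 0.098), ENSRNOG00000029844 -0.32, ENSRNOG00000004405 -0.26 and ENSRNOG00000012404 -0.24, with edgeR adjusted p of 0.18 to 0.30. ENSRNOG00000012404 varied more between animals than between tissues, with 278.7 and 363.9 CPM in the colonies and 359.2 and 378.0 CPM in the hosts of animals 248 and 243, and 592.7 to 658.5 CPM in colonies and 569.8 to 962.1 CPM in hosts of the other 3 animals.

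Animal 246 differed from the other 4. The median log2 difference over the members was -0.60, -0.33, 0.15, -0.70 and -0.53 in animals 242, 243, 246, 248 and 249, and 2 of 10 members were lower in animal 246, against 9 or 10 in each of the others. The medians of all 7862 genes over 10 CPM were -0.30, -0.14, 0.05, -0.16 and -0.29 in the same animals, so animal 246 also stood apart over all genes. With nuclear totals the members' medians were nearer to 0, at -0.21, -0.10, 0.09, -0.41 and -0.09. Without animal 246 all 10 members were called lower, and 0 were called without any 1 of the other 4 animals or without the block. Calls over all genes moved too, to 2683 of 21907 without animal 246 (1628 lower). With animal 242, 243, 248 or 249 left out in turn, 5, 130, 158 and 0 genes were called. The 4 calls thus rest on which animals enter, as do the calls over all genes. The median over members was -0.44, against 0.11 for all genes tested and -0.21 for the 2750 genes of like level. Nuclear totals without TMM moved these medians of members and of all genes to -0.18 and 0.36, left 0 members called and gave 2 a positive difference. The members' median relative to all genes was -0.54, and it was -0.36 with the stricter low-count filter, -0.41 without animal 248 and -0.70 without animal 246.

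**Figure D4:**
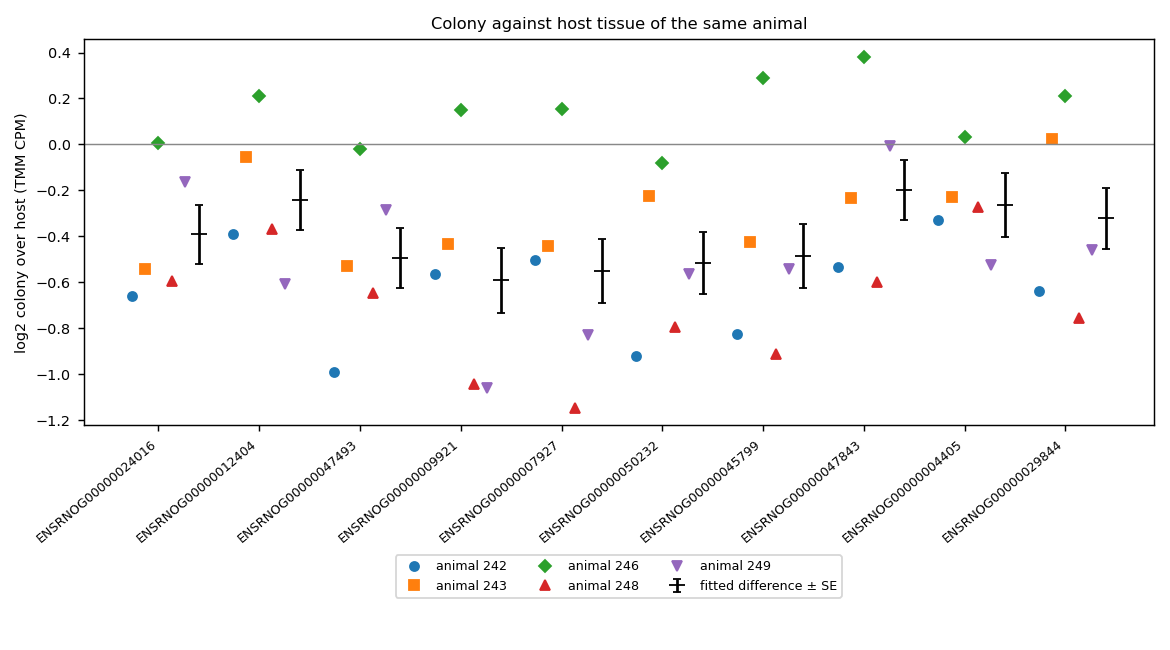
Log2 ratio of TMM-scaled CPM in colony over host tissue for each of the 10 members, with 1 symbol for each of 5 animals and, in black, the fitted difference with its SE. With TMM scaling, animal 246 (diamonds) lies near or above 0 for all members, from -0.08 to 0.38. Animals 242, 248 and 249 lie below 0 for all, with animal 249 at -0.006 for its highest member.

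Genes beside the members moved in both directions before transplantation. Up to 5 features on either side within 500000 nt gave 85 neighbours, of which 37 were tested before transplantation and 63 after it. Between LAP+ and adult cells, where 60.3% of all genes tested were called, 19 neighbours were lower and 7 higher in LAP+ cells (edgeR adjusted p under 0.05), where 28.5 and 31.7% of all genes were. The lowest were ENSRNOG00000043131, 445615 nt from ENSRNOG00000050232 (log2 -15.88), and ENSRNOG00000059330, 277995 nt from ENSRNOG00000024016 (log2 -15.24), sizes that depend on near-zero counts. ENSRNOG00000059330 and ENSRNOG00000021405 are 2 of the 19 and met the rule themselves, so their calls were fixed by the values that chose them. The highest were ENSRNOG00000004341, 104787 nt from ENSRNOG00000004405 (log2 4.13, SE 0.68, edgeR adjusted p = 6.2e-05), and ENSRNOG00000007610, 68023 nt from ENSRNOG00000007927 (log2 2.03, SE 0.38, edgeR adjusted p = 2.1e-04). Between the OC2 sorts 15 of the 37 were lower and 5 higher in LAP+/OC2+ cells, where 36.6 and 30.8% of all genes were.

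In colonies 4 of 63 neighbours were called lower and 0 higher than in hosts (edgeR), where 0.61 and 0.565% of all genes were. Of the 2750 genes in the members' range of mean level, 3.31% were called lower, and the neighbours were not matched for level. At an unadjusted edgeR p under 0.05 there were 18 of the 63 neighbours in either direction, against 4235 of all 22303 genes. The largest fall among those called was in ENSRNOG00000021405 (log2 -0.68, SE 0.15, edgeR adjusted p = 0.030), 1 of the 4 unlisted genes that met the rule, followed by ENSRNOG00000010410 (log2 -0.53, SE 0.14, edgeR adjusted p = 0.0498), 180110 nt from ENSRNOG00000009921.

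Across the 10 libraries after transplantation, 9 members varied together: the log2(CPM + 1) of each correlated with the mean of the other 9 at r = 0.62 to 0.89, and ENSRNOG00000012404 at r = -0.36. These libraries share animals and scaling, and no p is given. The genes whose pattern was most like the mean of the members, of 17745 compared, were ENSRNOG00000015602 (chromosome 18, 8146971 to 8360684, r = 0.99) and ENSRNOG00000021573 (chromosome 1, 92002927 to 92069160, r = 0.99). Neither was restricted to adult cells before transplantation: LAP+ cells held 72.7 and 27.0% of their adult levels.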

How the data were processed

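The authors deposited unnormalized counts for each feature, with exon coordinates and lengths per the file headers. Tools named in the submitters' processing notes are STAR 2.5.2b (aligner), Subread 1.5.2 (featureCounts), Trimmomatic 0.36 and bcl2fastq 2.17. No source used here gives the build, annotation release or strand setting, so reads of overlapping or near-identical genes cannot be told apart. Per the labels' protocols, sorted cells and captured tissue went into different library kits. The members and lists were chosen with earlier results of these data known. Groups were taken from sample titles.

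Tests used edgeR 4.0.16 under R 4.3.3 on the counts (TMM, filterByExpr given the design, robust quasi-likelihood test), adjusted by Benjamini-Hochberg over all genes tested. The 16 libraries before transplantation entered 1 fit, and the 10 after it another with the animal as a block. Colony and host deviations within animals correlated at 0.09 to 0.62 (5 pairs, genes over 10 CPM). Members were given no test in comparisons with LAP+ or adult cells, which chose them. Nuclear CPM divides by nuclear counts. The genes named are the 10 members, the 2 most alike after transplantation (mean over 1 CPM, log2(CPM + 1)), and at most 2 rising and 2 falling neighbours per comparison among those called; the unlisted genes that met the rule and the genes at its limits were named after their values were seen. Alternatives were RLE factors, nuclear features alone, other filters, DESeq2 1.42.0, limma 3.58.1 (voom), other blocks and leaving out libraries. This test was first checked on simulated counts. All 44 replicate pairs differed by more than counting error (4.91 to 255 as chi-square over degrees of freedom), so none was merged.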

Additional observations from a re-analysis of the deposited data

Results flagged for a closer look

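Of 57 sets of 4 or 5 libraries of 1 group, 5 held a value that stood apart from the others by Dixon's 95% limit. For normally distributed values, chance gives this in about 1 of 20 sets. In host tissue, animal 242 had the highest nuclear CPM of ENSRNOG00000004405, at 7821 against 6928 to 7107 in the other 4 animals. The other 4 are LAP+ values that rest on few counts. ENSRNOG00000009921 stood at 0.277 nuclear CPM in LAP+ library 4 (4 counts), against 0.134 to 0.137 in the others. ENSRNOG00000024016 stood at 0.0684 nuclear CPM in LAP+ library 3, ENSRNOG00000007927 at 0.135 in library 1 and ENSRNOG00000045799 at 0.0676 in library 1, where no other LAP+ library had a count of the gene. A set with counts in a single library is always flagged, so the rate above does not apply to it.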

How the results depend on the processing

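Between the OC2 sorts, 0 members were called, and 1 without a low-count filter. Libraries left out in turn gave 0 to 1. Over all genes, 9323 of 13818 were called, 10547 of 23217 without the filter, and 8752 to 9485 with libraries left out. The labels do not say what library numbers before transplantation share, and same-number correlations of LAP+/OC2+ with LAP+/OC2- were -0.33 to -0.12 (3 pairs). These sorts were therefore not treated as paired. With the number as a replicate block 2 members were called, beside 8472 of all 13818 genes. Nuclear totals without TMM, chosen after the data were examined, gave a positive log2 for ENSRNOG00000007927 (0.046), ENSRNOG00000012404 (0.21), ENSRNOG00000024016 (0.14) and ENSRNOG00000050232 (0.18).

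Colony against host had 4 members called, 6 with DESeq2, 7 with limma-voom and 5 without a low-count filter. It had 0 with the stricter filter, with no replicate block, with a low-count filter by group or with nuclear totals without TMM. The last 2 settings were chosen after the data were examined. With nuclear totals without TMM, the log2 of ENSRNOG00000012404 (0.015) and ENSRNOG00000047843 (0.058) turned positive. Animals left out in turn gave 0 to 10 members called, with 0 to 2683 calls over all genes. Over all genes, 262 were called, against 16 with the stricter filter, 6 by group, 751 without a filter, 682 with DESeq2, 3205 with limma-voom and 0 without the block.

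The share of adult in LAP+/OC2+ cells was 0.991%, 0.368% as CPM of all counts and 0.545% with TMM, and 0.895 to 1.12% with libraries left out. In LAP+/OC2- cells it was 0.854 to 1.07% with libraries left out. The rule gave 14 features, 8 at 0.02%, 16 at 0.1% and 9 with the limit met in every LAP+ library. Called neighbours between LAP+ and adult cells numbered 26, and 23 to 27 with libraries left out. Causes were not tested. LAP+/OC2+ libraries held 0 to 180 counts per member, so values of some members there rest on few counts.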
